A study of Homo sapiens with 6 samples.

Results

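The Schlafen genes encode a family of proteins that share a Schlafen core domain, which cuts RNA in some of the members. Several of the proteins carry a helicase-like C-terminal part. Interferon raises the RNA of several members in many cell types. SLFN11 is best known in cancer cells, where it is recruited to stalled replication forks and makes cells sensitive to DNA-damaging drugs. SLFN5, SLFN11, SLFN12, SLFN12L, SLFN13 and SLFN14 are described here, 6 of the 60675 genes in the deposited table, found by their symbols. They were selected on their measured levels, because SLFN11 differed strongly between the libraries of this series, so their levels and differences are given as descriptions with no test.

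The cells were SUM159, an established line of human triple-negative breast cancer, and the study asked which genes change on loss of DAPK3, a death-associated protein kinase that phosphorylates serine and threonine. The control libraries (R1 to R3, genotype DAPK3 WT) and the knockout libraries (KO, R1 to R3, genotype DAPK3 KO) held polyA RNA. Cells of both groups grew in Ham's F-12 medium supplemented with serum (5%), HEPES (10 mM), insulin (5 μg/mL) and the glucocorticoid hydrocortisone (1 μg/mL). All KO libraries came from 1 knockout line, numbered 3, so a difference between the labels can also be one between this line and its controls. No label says whether the libraries came from separate cultures. Library totals ran from 16312184 to 22970823 expected counts, which are RSEM's estimated read numbers, and levels are CPM, counts scaled to a common library total with edgeR's TMM factors. Values given across the controls or across the KO libraries are those of R1, R2 and R3, in that order.

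DAPK3 RNA went against the label in 1 library of each group. It stood at 26.2, 10.5 and 26.1 CPM across the controls, and at 13.1, 27.2 and 11.2 CPM across the KO libraries. The library labelled control R2 was therefore among the low ones and the library labelled KO R2 was the highest. Because mutated alleles may still be transcribed, this level does not give a genotype, and the libraries were not regrouped. Whether the labels of control R2 and KO R2 were exchanged cannot be settled from these files, and each mean and fold change by label depends on it. Each comparison is given for all 6 libraries and, as a comparison chosen after seeing the data, without both R2 libraries. SUM159 markers were high in every library, with VIM, the intermediate filament protein vimentin, at 1425 CPM or more. Of 5 luminal and hormone receptor markers, PGR, the progesterone receptor, was listed at 0 in all 6 libraries and ESR1 had at most 0.478 CPM. The others were detected, with ERBB2 at 52.2 to 97.7, GATA3 at 3.68 to 10.4 and FOXA1 at 0.866 to 2.77 CPM.

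SLFN11 was present in 3 libraries and close to absent in the other 3. SLFN11 (ENSG00000172716, GRCh38 chromosome 17, 35350305 to 35373701, minus strand, protein-coding) stood at 89.4, 1.91 and 101 CPM across the controls. Across the KO libraries it stood at 1.97, 76.6 and 2.52 CPM. Control R1, control R3 and KO R2 were high, control R2, KO R1 and KO R3 were low, and the labelled groups overlapped. The low libraries were not empty of SLFN11 reads, with 36.8 to 57.8 expected counts each against 1239 to 1999 in the high ones. Within the controls, R1 was 46.7-fold above R2 (95% exact counting interval 34.2 to 65.6), and within the KO libraries R2 was 39.0-fold above R1 (28.1 to 55.6). These intervals cover counting error only. In bulk RNA, fewer cells expressing SLFN11 and less SLFN11 RNA per cell cannot be told apart.

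The high and low SLFN11 libraries were also the high and low DAPK3 libraries. The 3 libraries with DAPK3 at 26.1 CPM or more had SLFN11 at 76.6 CPM or more, and the 3 with DAPK3 at 13.1 CPM or less had SLFN11 at 2.52 CPM or less. DAPK3 itself differed far less, 2.5-fold between control R1 and R2 and 2.1-fold between KO R2 and R1. Control R2 had the lowest control level and KO R2 the highest KO level of SLFN11, SLFN12, SLFN12L and SLFN13, an order found in 29.1% of all genes tested.

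**Figure D1:**
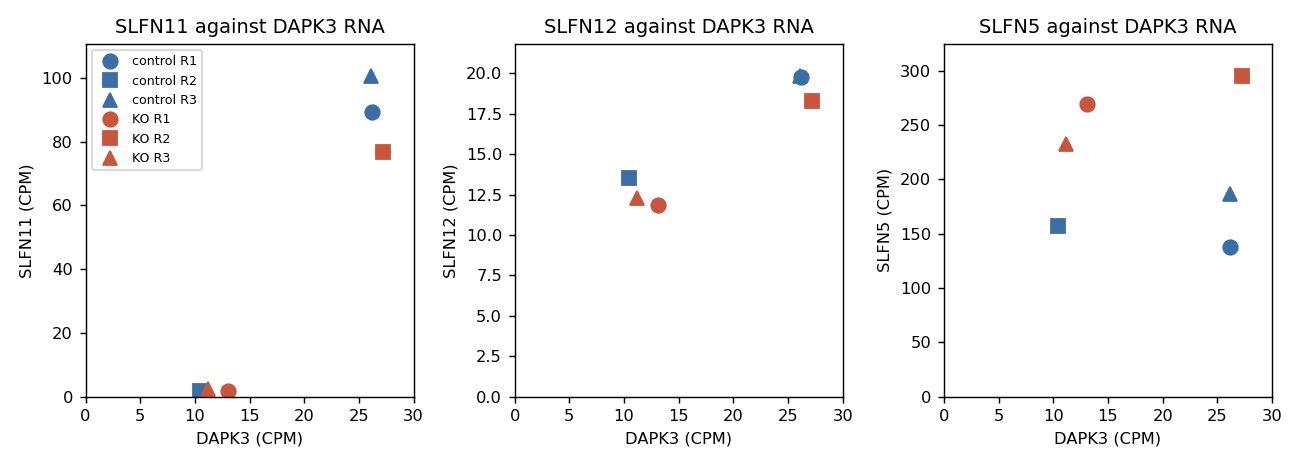
Level of SLFN11, SLFN12 and SLFN5 (vertical axes, CPM) against DAPK3 (horizontal axis, CPM) in each of the 6 libraries, blue for control and red for KO. SLFN11 and SLFN12 are high in the 3 libraries with DAPK3 at 26.1 CPM or more, whereas SLFN5 is high in the 3 libraries labelled KO.

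By label, SLFN11 averaged 64.0 ± 54.0 CPM in control and 27.0 ± 42.9 CPM in KO (SD, n = 3). The fitted log2 fold change, KO over control, was −1.25 with a standard error of 1.65. Without both R2 libraries it was −5.40, a value that follows from leaving out the library of each group that stood apart in SLFN11. With KO R2 alone left out it was −4.84, so this library sets most of the distance between the values. The direction was negative in each of 13 alternatives, from −4.84 to −0.72. In each, a larger share of the control than of the KO libraries was high, so the sign was fixed in advance.

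The promoter of SLFN11 is shown because SLFN11, SLFN12 and SLFN12L moved in the same order of libraries and RefSeq windows were available for these 3 genes. Stretches are from the RefSeq windows on GRCh38.p14, 5′ to 3′ on the minus strand, with positions counted back from the RefSeq start. Capitals mark matches, on either strand, to TTCNNNGAA, the letters of a STAT binding element, or CCGGAA, an ETS-type core. SLFN11 has both at 1 place, where they overlap, in the 170 bases upstream of its outermost annotated start (chr17:35373702-35373871). For SLFN12L (chr17:35537789-35537818) and SLFN12 (chr17:35433247-35433276), 30 bases around the match farthest from the start are given. Both stretches lie before the RefSeq start but inside the annotated gene. Neither gene had a match in its window upstream of the outermost annotated start.
SLFN11: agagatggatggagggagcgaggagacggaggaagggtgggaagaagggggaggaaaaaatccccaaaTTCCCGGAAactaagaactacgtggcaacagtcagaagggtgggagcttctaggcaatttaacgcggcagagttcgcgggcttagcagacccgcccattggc
SLFN12L: taggagaaTTCTGAGAAatggaaactttaa
SLFN12: gcggacacTTCCGGagcgccagctgcccaa

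The 3 windows differed in base composition and in motif matches. In the 250 bases before the start, SLFN11 held 15 CpG dinucleotides, SLFN12 held 9 and SLFN12L held 2, against a median of 10 over 27305 windows of that length. SLFN11 had 1 match to TTCNNNGAA, SLFN12L had 2 and SLFN12 had none, and 6.80% of all windows held at least 1. CCGGAA matched 2 times in SLFN12, 1 time in SLFN11 and not in SLFN12L, against 14.7% of all windows with a match. These matches describe letters in the reference and not bound sites.

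SLFN13 followed the SLFN11 order at a level near the limit of the depth. SLFN13 (ENSG00000154760, 35435096 to 35448837, minus strand), an endonuclease that cuts tRNA and rRNA, stood at 5.13, 0.143 and 5.03 CPM across the controls. Across the KO libraries it stood at 0.106, 4.27 and 0.130 CPM. The low libraries rested on 2.16 to 3.22 expected counts each. Control R1 was 35.8-fold above control R2, with a counting interval of 11.9 to 176, and KO R2 was 40.1-fold above KO R1, with an interval of 10.7 to 338. The fitted log2 fold change by label was −1.22 (SE 1.56). It was −5.36 without both R2 libraries, which stood apart from their groups in SLFN13 too.

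SLFN13 and SLFN11 share sequence, and this bears on the counts. Of the distinct 50-base words in the GENCODE release 29 transcripts of SLFN13, 6.50% also occur in those of SLFN11, where they make up 9.69%. RSEM divides reads that fit both genes by estimate, so part of the SLFN13 level could be SLFN11 reads. The CPM of SLFN11 was 13.3 to 20.0 times that of SLFN13 over the 6 libraries. How much the shared sequence added to SLFN13 was not tested.

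SLFN12L had few reads, and they lay in the same libraries. SLFN12L (ENSG00000205045, 35464249 to 35537861, minus strand), a close relative of SLFN12, had 21, 1 and 24 expected counts across the controls and 2, 14 and 0 across the KO libraries. These are 1.03, 0.0478 and 1.21 CPM in control and 0.106, 0.866 and 0 CPM in KO. The 0 in KO R3 allows up to 0.130 CPM, taking 3 counts as the limit. The 95% exact counting interval of the ratio of KO R2 to KO R3 started at 4.72 and had no upper limit. The fitted log2 fold change by label was −1.29 (SE 1.40), and −3.81 with KO R2 left out.

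SLFN12 moved in the same order over a much narrower range. SLFN12 (ENSG00000172123, 35411060 to 35433283, minus strand) encodes an RNase that is stabilised and activated when small molecules bind it to the phosphodiesterase PDE3A. It stood at 19.8, 13.5 and 19.8 CPM across the controls and at 11.9, 18.3 and 12.3 CPM across the KO libraries. Control R1 was 1.46-fold above control R2 (95% exact counting interval 1.25 to 1.71), and KO R2 was 1.54-fold above KO R1 (1.29 to 1.85). The labelled groups overlapped, at 17.7 ± 3.63 CPM in control and 14.1 ± 3.61 CPM in KO (SD, n = 3). The fitted log2 fold change was −0.33 (SE 0.25). It was −0.73 without both R2 libraries, which stood apart from their groups in SLFN12 as well.

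SLFN5 was the member that divided by the label and not by DAPK3 RNA. SLFN5 (ENSG00000166750, 35243036 to 35273655, plus strand) encodes a nuclear member of the family with the helicase-like part. It stood at 137, 157 and 187 CPM across the controls and at 270, 295 and 232 CPM across the KO libraries. All 3 KO libraries were above all 3 control libraries, an order found in 6.97% of the genes tested. The means were 161 ± 24.9 CPM in control and 266 ± 31.6 CPM in KO (SD, n = 3), a ratio of 1.65. The fitted log2 fold change was 0.73 (SE 0.16), 0.61 (SE 0.17) without both R2 libraries, and between 0.62 and 0.84 over 13 alternatives.

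SLFN14 was barely detected. SLFN14 (ENSG00000236320, 35548125 to 35558098, minus strand) encodes a ribosome-associated endonuclease known from platelets and red cell precursors. It had 5, 1 and 4 expected counts across the controls and 5, 7 and 0 across the KO libraries. Its counting intervals overlapped between all libraries except that KO R2 (0.174 to 0.892 CPM) lay above the 0.130 CPM that the 0 of KO R3 allows. No order of the labels or of DAPK3 RNA was detectable at this depth.

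**Figure D2:**
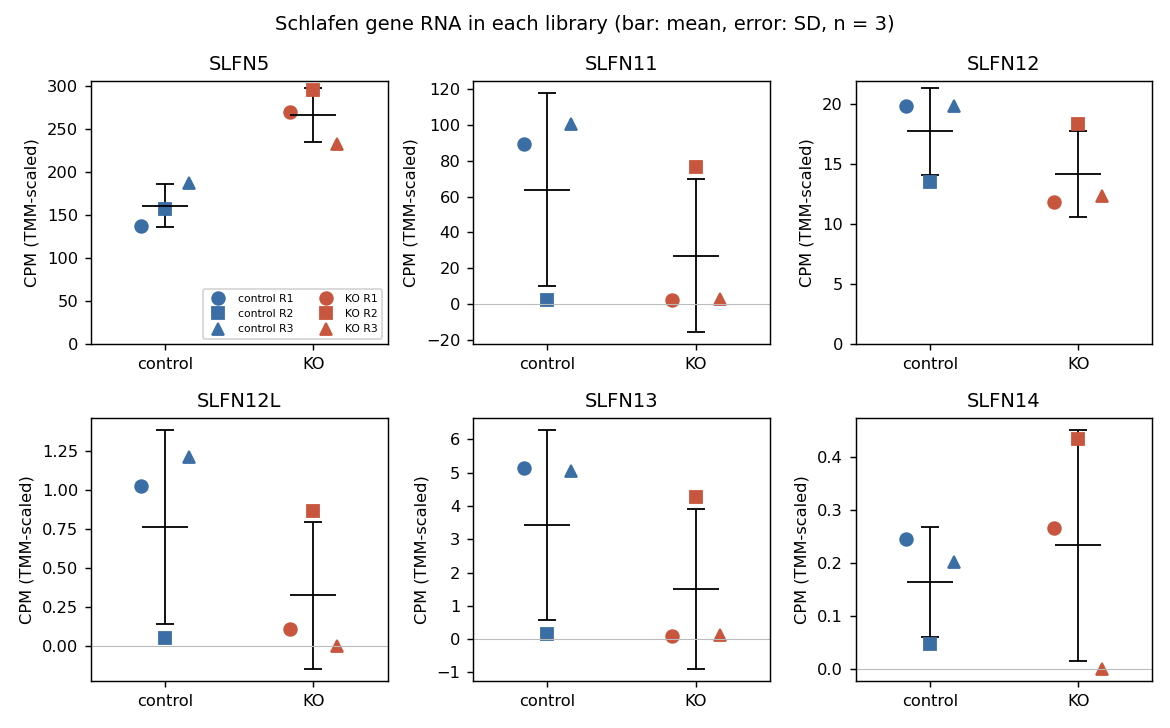
CPM of each Schlafen gene in control and KO libraries, 1 panel per gene with its own linear axis, a point per library, the mean as a bar and the SD (n = 3) as error. SLFN11, SLFN12, SLFN12L and SLFN13 are high in control R1, control R3 and KO R2, while SLFN5 is higher in all 3 KO libraries.

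The test across all genes called few or many genes depending on the R2 libraries. With all 6 libraries, edgeR's quasi-likelihood test called 0 of 14613 genes at a Benjamini-Hochberg adjusted p under 0.05, or 0.00%, with 1119 genes at an unadjusted p under 0.05. DESeq2 called 124 genes and limma-voom 0. Of the Schlafen genes, 5 passed the filter on low counts and SLFN14 did not. SLFN12L and SLFN13 passed it through the 3 libraries where they are high. Without both R2 libraries, edgeR called 4055 of 14846 genes, or 27.3%, with 15.2% lower and 12.2% higher in KO. No call is given for the Schlafen genes, since their choice used these levels.

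Compared per kilobase of annotated exon, SLFN5 led the family in 5 of 6 libraries. SLFN5 ranged from 12.8 to 27.6 CPM per kb, SLFN11 from 0.320 to 16.8 and SLFN12 from 3.33 to 5.57. The ranges of SLFN5 and SLFN12 did not overlap, and that of SLFN11 covered the SLFN12 range and overlapped the lower part of the SLFN5 range. SLFN13, with at most 0.550 CPM per kb, SLFN12L, with at most 0.251, and SLFN14, with at most 0.150, overlapped one another. SLFN11 was 1.16 times SLFN5 per kb in control R1 and 0.0131 times in KO R1. Exon lengths join all annotated transcripts, so a gene with long alternative ends, such as SLFN13 with 9329 exon bases, is set lower by this scale.

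The make-up of the family RNA differed between libraries mainly in SLFN11 and SLFN5. The SLFN11 share of the summed Schlafen level per kb was 43.7%, 1.69% and 41.3% across the controls. Across the KO libraries it was 1.14%, 27.7% and 1.65%. SLFN5 took 37.5% of the sum in control R1 and 86.9% in KO R1, the lowest and highest values. The sum itself was highest in KO R2, at 46.3 CPM per kb, where both SLFN5 and SLFN11 were high. It was lowest in control R2, at 18.9, where neither was. SLFN12 held a share of 11.1% to 20.1%.

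**Figure D3:**
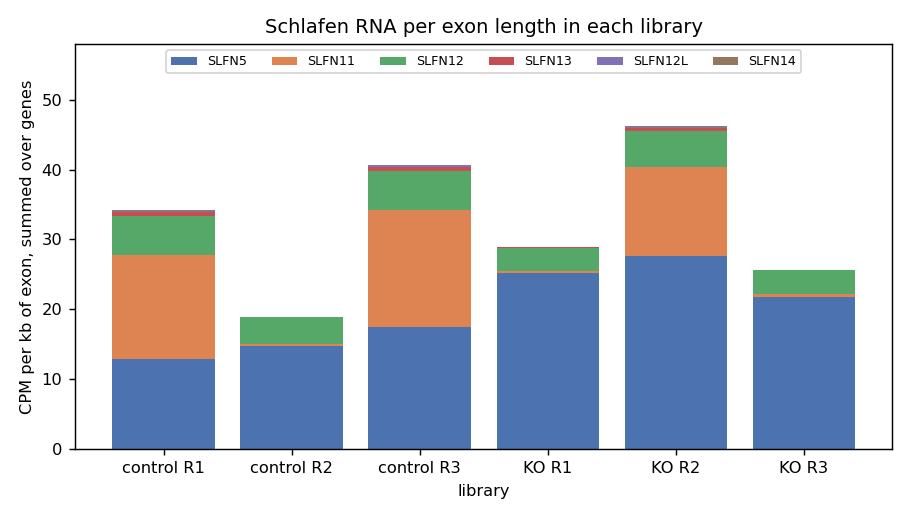
Summed Schlafen RNA in each library, in CPM per kb of exon, with a coloured segment for each gene. SLFN11 is a large segment in control R1, control R3 and KO R2 only, and the bar of KO R2 is the tallest at 46.3.

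The 6 genes lie in a cluster on chromosome 17, and AP2B1, a neighbour on the SLFN14 side, did not show the spread of SLFN11. The cluster spans 315063 bases, with SLFN5 on the plus strand and separated from SLFN11 by 76649 bases. The other 5 genes lie on the minus strand, and only 1812 bases separate SLFN12 from SLFN13. Annotated non-coding genes and pseudogenes also lie in the cluster. Between SLFN11 and SLFN12, RP11-686D22.4 had few reads in the SLFN11 order. It stood at 0.586, 0.335 and 0.755 CPM in control and at 0.0531, 0.804 and 0.217 CPM in KO. RP11-686D22.8 did not have that order, at 4.25, 1.96 and 2.87 CPM in control and 3.99, 3.34 and 3.13 CPM in KO. AP2B1, which encodes a clathrin adaptor subunit, stood between 386 and 438 CPM over the 6 libraries. On the SLFN5 side the nearest were SLC35G3, listed at 0 in all libraries, and UNC45B, with no more than 0.053 CPM.

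Of the 10 protein-coding neighbours on each side, 11 were tested and none was called with all 6 libraries, with a median log2 fold change of 0.13 against −0.00034 over all genes tested. When both R2 libraries were left out, 4 of 13 tested were called higher in KO, CCL5, MMP28, RFFL and NLE1, and none lower (edgeR). Of all genes tested in that comparison, 12.2% were called higher and 15.2% lower. MMP28 passed the filter on low counts there only through the KO libraries. The chemokine gene CCL5 stood at 1.07, 21.9 and 2.16 CPM across the controls and at 19.8, 2.78 and 23.6 CPM across the KO libraries. It was low where SLFN11 was high. MMP28, a secreted metalloprotease, ran the same way as CCL5 between 0.195 and 1.91 CPM.

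**Figure D4:**
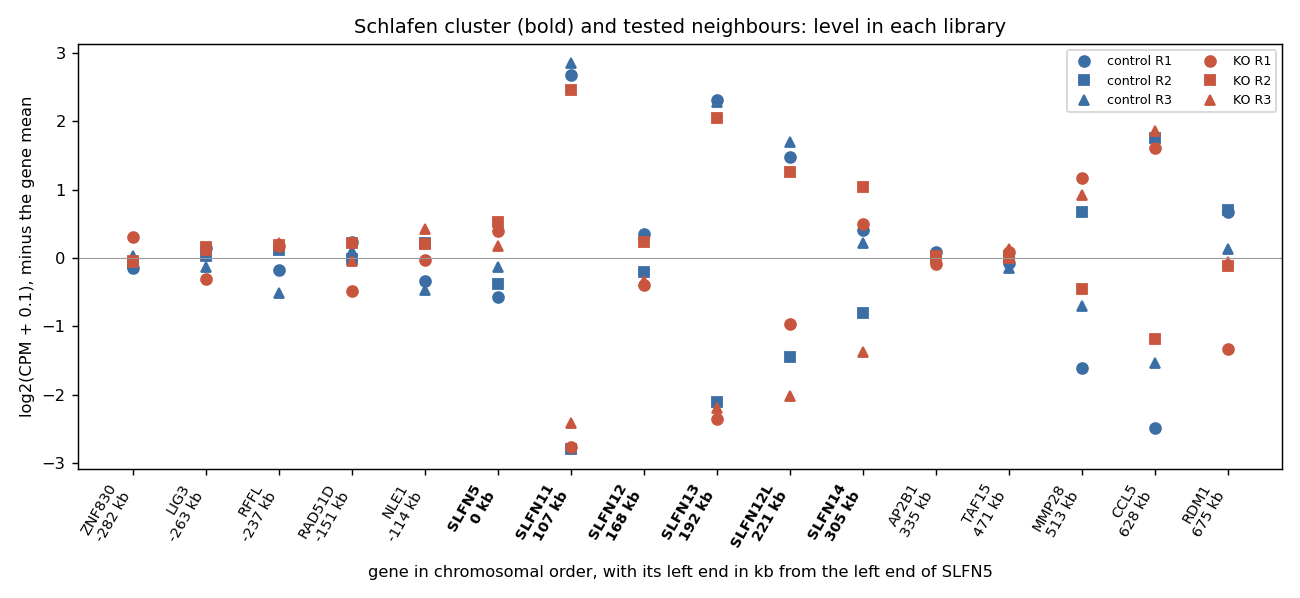
Level of the Schlafen genes (bold) and tested neighbours in each library, as log2(CPM + 0.1) minus the gene's mean, in chromosomal order with distance in kb from the left end of SLFN5. SLFN11, SLFN13 and SLFN12L spread widely, AP2B1 hardly at all, and CCL5 and MMP28 have the library order turned over.

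Genes whose profile came closest to SLFN11 lay on other chromosomes. Likeness was the root mean square difference of mean-centred log2 CPM over the 6 libraries, among 13291 genes with a mean of at least 1 CPM. The 5 closest were CPED1 (0.18), STK26 (0.21), HS6ST3 (0.23), DIRAS1 (0.24) and PDE1C (0.25). CPED1 stood at 84.7, 1.82 and 70.4 CPM across the controls and at 1.70, 80.2 and 2.43 CPM across the KO libraries. Only 2 of these 5 stayed among the closest when the count added before the log was changed from 2 to 0.5 or 5. Among the family, SLFN13 was 0.47 from SLFN11, with 40 genes closer, and SLFN12 was 2.36 away, with 1581 genes closer.

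For SLFN5 the 5 closest were ABCA10 (0.097), PIK3CD (0.12), CDC42EP2 (0.12), STARD7-AS1 (0.12) and BRSK1 (0.12), and they were the same 5 under both other settings. These likenesses describe 6 libraries and carry no test.

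Interferon signalling and response genes are known to act upstream of or beside several Schlafen genes. In most of them the R2 libraries stood opposite to SLFN11 within their groups. Of 41 genes, 39 were tested, none was called with all 6 libraries, and the median log2 fold change was 0.03. Without both R2 libraries 18 of 39 were called higher and 6 lower in KO (edgeR), against 12.2% and 15.2% of all genes tested. The list had a median of 0.48 there, against −0.02 over all genes. In 24 of the 39, control R2 was the highest control and KO R2 the lowest KO library, against 28.3% of all genes tested. This order compares libraries within each group only and is not the full reverse of the SLFN11 order. In 7, control R2 was the lowest control and KO R2 the highest KO library, against 29.1% of all genes tested.

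The called genes with the smallest p were antiviral effectors. OAS2, an enzyme that makes the activator of RNase L, stood at 1.56, 36.2 and 0.956 CPM across the controls and at 17, 0.804 and 27 CPM across the KO libraries. OASL, a related protein, stood at 2.79, 97.1 and 4.68 CPM in control and at 52.9, 8.41 and 98.5 CPM in KO. Both were therefore low in the libraries where SLFN11 was high. With the R2 libraries left out, the log2 fold change was 4.11 for OAS2, 4.33 for OASL, 2.46 for the ubiquitin-like ISG15 and 4.75 for the radical SAM enzyme RSAD2.

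The 6 interferon list genes called lower were JAK1, STAT2, IFI27, XAF1, IFITM2 and EPSTI1. EPSTI1 and IFI27 passed the filter on low counts in that comparison only through the controls, where they were high. Among the genes called higher, OAS1 passed it only through the KO libraries. The counts of called genes in this list include such genes. XAF1, an XIAP-binding protein, stood at 11.2, 0.526 and 8.45 CPM across the controls and at 0.159, 22.0 and 0.825 CPM across the KO libraries, in the SLFN11 order. IRF9, a transducer of the interferon signal, ranged from 4.21 to 5.67 CPM over all libraries and was not called in either comparison. IFITM3 and BST2, the most abundant of the list, ranged from 260 to 354 and from 113 to 185 CPM and were not called in either comparison. IFITM1, with the smallest p in the labelled comparison, had a log2 fold change of −0.37 (SE 0.12).

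**Figure D5:**
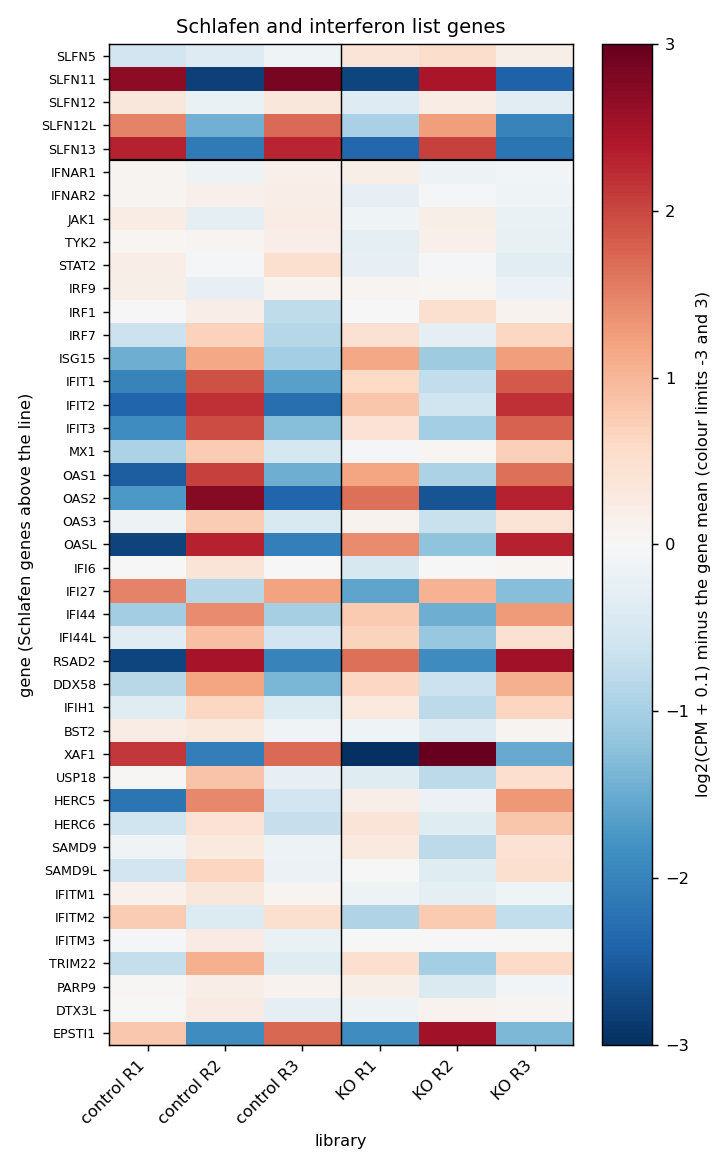
Colour map of log2(CPM + 0.1) minus the gene's mean for 5 Schlafen genes (above the line) and interferon list genes in the 6 libraries, red above and blue below the mean. OAS2, OASL and RSAD2 are blue where SLFN11 is red, and XAF1, EPSTI1 and IFI27 share the SLFN11 colours.

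Reported regulators of SLFN11 transcription did not all move alike. In 7 of the 13, control R2 was the lowest control and KO R2 the highest KO library, against 29.1% of all genes tested. In 1 the order of the R2 libraries was the reverse, against 28.3% of all genes tested. All 13 were tested. With all 6 libraries edgeR called none of them, as it called 0 of 14613 genes. DESeq2 called ETS1, against 124 of 14613 genes. Their median log2 fold change was −0.18. ETS1, an ETS factor reported to drive SLFN11, stood at 215, 229 and 210 CPM across the controls and at 279, 354 and 303 CPM across the KO libraries. It was higher in every KO library, as SLFN5 was, and so did not follow the SLFN11 order (log2 fold change 0.52, SE 0.12). Of the 13, only ETS1 had all KO libraries above all controls, against 6.97% of all genes tested. For 3 they were below all controls, against 6.86%. FLI1, another ETS factor, had at most 1.24 CPM. EZH2, the histone methyltransferase reported to silence SLFN11, stood at 81.0, 81.7 and 69.2 CPM in control and at 54.4, 82.2 and 80.2 CPM in KO.

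Leaving out both R2 libraries, 1 of the 13 regulators was called higher, ETS1, and 5 lower (edgeR), against 12.2% and 15.2% of all genes. Their median was −0.45, against −0.02 over all genes. UHRF1, which guides DNA methylation maintenance, stood at 111, 67.4 and 115 CPM across the controls and at 42.0, 62.5 and 51.8 CPM across the KO libraries, with a log2 fold change of −1.28 there. ERG, an ETS factor, stood at 16.5, 7.31 and 12.9 CPM in control and at 3.88, 11.8 and 5.04 CPM in KO, in the SLFN11 order. DNMT3B and DNMT1, which methylate DNA, had log2 fold changes of −1.43 and −0.61 in that comparison.

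Replication stress proteins linked to SLFN11 were tested as a further list. All 14 were tested. With all 6 libraries edgeR called none of them, as it called 0 of 14613 genes. DESeq2 called MCM3, against 124 of 14613 genes. Their median log2 fold change was −0.30. MCM3, a subunit of the replicative helicase, stood at 291, 183 and 248 CPM across the controls and at 104, 147 and 137 CPM across the KO libraries. All 3 KO libraries were below all 3 controls for 7 of the 14 genes, MCM3 among them, an order found in 6.86% of the genes tested. In the comparison without both R2 libraries, 1 gene, the ubiquitin ligase scaffold CUL4A, was called higher, and 4 were called lower, MCM3, DHX9 and WEE1 among them (edgeR). These 5 of 14 stand against 27.3% of all genes called. RPA1, the single-stranded DNA binding subunit that recruits SLFN11, stood between 79.0 and 158 CPM and was not called in either comparison.

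PDE3A, the partner of SLFN12, was close to the detection limit, at 0.733, 0.0478 and 0.705 CPM across the controls and at 0.106, 0.371 and 0.0868 CPM across the KO libraries, and was not tested with all 6 libraries. Its order was that of SLFN11. PDE3B, its relative, was not called with all 6 libraries. Without both R2 libraries PDE3A was called lower (edgeR), against 15.2% of all genes tested. PDE3A passed the filter on low counts there only through the controls, where it was high, so this call is no support for a difference.

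Genes of tRNA cleavage and ribosome stalling, the processes in which Schlafen nucleases act, showed no common direction. Of 12 genes 11 were tested with all 6 libraries, none was called, and the median log2 fold change was 0.05. GTPBP2, which rescues stalled ribosomes, stood at 236, 231 and 288 CPM across the controls and at 343, 507 and 328 CPM across the KO libraries. All KO libraries were above all controls for 2 of the 11 genes, GTPBP2 among them, against 6.97% of all genes tested. They were below all controls for 1, against 6.86%. With the R2 libraries left out, ZNF598 and GTPBP1 were called higher and the tRNA-cutting nuclease ANG lower (edgeR), 3 of 12 against 27.3% of all genes called.

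Of the blood cell markers, PTPRC, the leukocyte surface phosphatase CD45, had the library order of SLFN11, a gene that immune cells also express. The monocyte marker CD14 had it too, at up to 1.24 CPM. LYZ, HBB and HBA1 did not have that order. LYZ was highest in control R2, at 0.478 CPM, and HBB and HBA1 were lowest of the controls in control R1, at 0.342 and 0.928 CPM. PTPRC stood at 2.98, 0.0478 and 2.92 CPM across the controls and at 0.106, 3.28 and 0 CPM across the KO libraries. The summed level of 11 blood and immune markers was 4.89, 3.01 and 7.25 CPM across the controls and 2.98, 7.73 and 1.39 CPM across the KO libraries. Without PTPRC the other 10 summed to 1.91, 2.96 and 4.33 CPM across the controls and 2.87, 4.45 and 1.39 CPM across the KO libraries. Only the sum with PTPRC was higher in each of the 3 libraries where SLFN11 was high. The defining lymphocyte markers CD3D and MS4A1 were listed at 0 in all libraries, and 7 of the 11 were under 1 CPM throughout. The part of these markers in the SLFN11, SLFN12L and SLFN13 levels was not tested.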

How the data were processed

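Each library had 1 column of expected counts, deposited by the authors without normalization, of which 9.42% to 10.6% were not whole. The submitters' processing notes name RSEM, Bowtie2 and edgeR and the build GRCh38. The sources used here give no version, annotation release or strand setting, so a gene and an overlapping antisense gene could share reads. Coordinates and exon lengths are from GENCODE release 29, which may differ from the authors' release.

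Counts were rounded and tested with edgeR 4.0.16 (quasi-likelihood, TMM, filterByExpr, Benjamini-Hochberg) in R 4.3.3, and the step was tested on simulated data. Alternatives were DESeq2 1.42.0, limma-voom (limma 3.58.1), other scaling and filters, a replicate block, each library left out and, added after seeing the data, no R2 libraries. Nothing says that libraries were separate cultures, so p-values cover only their spread, possibly technical. Those without R2 rest on libraries chosen for DAPK3 RNA. The Schlafen genes and all lists were chosen with earlier results of these data known. Named genes were the Schlafen genes, DAPK3, the 5 genes most like SLFN11 and SLFN5, preset regulators and partners, in each list up to 4 called genes (or, failing that, the most abundant ones and those of smallest p), and the nearest and most variable neighbours. XAF1, IFI27, IFITM2, EPSTI1 and JAK1 were named after their values were seen. Counting intervals are exact and cover counting error only. SLFN5, SLFN13 and SLFN14 had no promoter window in the RefSeq table used. Some genes chosen by these rules are not reported here.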

Additional observations from a re-analysis of the deposited data

How the results depend on the processing

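With all 6 libraries the count of called genes was 0 under edgeR with RLE scaling, library totals, no filter, the stricter filter, limma-voom and each library left out, and 124 under DESeq2. Without both R2 libraries it was 4055, and 2543 to 3700 with 1 of those 4 libraries also left out, the lowest without control R1. There 1 arm has a single library, which is assumed to vary like the other group. Leaving out both R2 libraries moved the called members from 0 to 24 of 39 in the interferon list, 6 of 13 SLFN11 regulators, 5 of 14 replication stress genes, 2 of 3 SLFN12 partners, 3 of 12 tRNA genes and 4 of 13 neighbours, against 27.3% of all genes. With all 6 libraries DESeq2 called 1 SLFN11 regulator and 1 replication stress gene, against 124 of 14613 genes. The cause of these shifts was not tested. Some genes called without both R2 libraries passed the filter on low counts only through the group where they were high. PDE3A, EPSTI1, IFI27, OAS1 and MMP28 are among them. The direction of SLFN5, SLFN11, SLFN12, SLFN12L and SLFN13 was kept in each alternative run. For SLFN11, SLFN12, SLFN12L and SLFN13 this was fixed in advance, as more of the control than of the KO libraries were high. Depth limits SLFN12L, SLFN14 and the low libraries of SLFN13.

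With the replicate number as a block (replicate block), 0 genes were called. The numbers did not pair the libraries: deviations of same-numbered libraries correlated at −0.65, −0.85 and −0.70, and 0 of 6 libraries correlated best with their own number.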
